A study of Rattus norvegicus with 2 samples.

Results

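Cyclins, cyclin-dependent kinases, their inhibitors and the Cdc25 phosphatases were examined in H9c2 cells, a line derived from embryonic rat heart, that received either an empty vector or a plasmid for the calcium channel subunit beta4, encoded by Cacnb4. Members were taken by gene symbol from the deposited expression table. They were numbered symbols of cyclins A to L, with Ccnc, Ccnh and Ccnk, numbered cyclin-dependent kinases, their numbered inhibitors and Cdc25 proteins. Ccng1 was left out, and cyclin symbols without a number, such as Ccnf, Ccni and Ccnj, fell outside the rule. The rule gave 49 genes and 65 transcripts out of 16783 named genes, and symbols that begin like a kinase or inhibitor but name a binding partner came with it. Ccnd3, Cdkn2d, Cdk7 and Cdk8 were not among the named genes, so their roles are described without them. Each group held 1 library of total RNA from cells whose strain was labelled BD1X and whose tissue was labelled heart or myocardium. The labels give neither the time after transfection nor the share of cells that took up the plasmid, and nothing tells whether the cells came from 1 culture or several. With 1 library per group the differences below have no replicate check, and none was given a p-value.

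Cyclins are proteins whose amounts change through the cell cycle, and the cyclin-dependent kinases of the cell cycle are active when a cyclin is bound. D cyclins with Cdk4 and Cdk6 act in G1 and phosphorylate the retinoblastoma protein, which releases E2f factors. Cyclin E with Cdk2 then starts S phase, cyclin A carries S phase and G2, and cyclin B with Cdk1 drives mitosis. Cdc25 phosphatases remove an inhibiting phosphate from the kinases, Ink4 proteins block Cdk4 and Cdk6, and Cip/Kip proteins bind complexes of several cyclins. H9c2 cells divide as myoblasts and leave the cycle when they fuse into myotubes, a step at which Cdkn1a and D cyclins are known to take part in muscle cells.

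The empty vector library held 13569897 mappable reads and the Cacnb4 library 14939784. Levels are FPKM, fragments scaled to transcript length and library size, summed over the transcripts of a gene. The values used here are not counts, so the number of reads behind a level is unknown and no counting interval is given. Cacnb4 itself stood at 4.37 FPKM with the empty vector and 6266 FPKM with Cacnb4. Of 9 heart markers 4 reached 1 FPKM, with Tnnt2 and Actc1 above 100 FPKM in both libraries, while Myh6, Myh7 and Nppa were near 0. Of 5 skeletal myoblast markers 4 did, among them Myod1 at 89.8 and 101 FPKM. The leukocyte marker Ptprc and the endothelial markers Pecam1 and Cdh5 were below 0.1 FPKM in both libraries, and of the leukocyte markers Cd14 was measured, at 8.76 and 9.61 FPKM.

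Promoter windows are shown for the members that mark both ends of the differences and for the mitotic genes other than Cdc25b. The mitotic genes share a recurring motif. RefSeq windows on build GRCr8, from 250 bases before to 50 bases after the start, were found by symbol for 40 of 49 members. Those of the other members, Ccnd1, Ccnd2, Ccne2, Ccna2, Cdk6, Cdk9, Cdk13, Cdk17 and Cdkn1c, were not used here. Capitals mark 6 motifs on either strand. The motif CCAAT is bound by the factor NF-Y. The motif TTTGAA is 1 form of the cell cycle homology region and the motif TTCGAA is another. Of the E2f type were the motif TTTCCCGC, the motif TTTGGCGC and, as the last searched, the motif TTTCGCGC. The cyclin B1 window lies at chr2:33655176-33655475 on the minus strand, that of cyclin B2 at chr8:79981609-79981908 on the minus strand, and that of Cdk1 at chr20:19265043-19265342 on the plus strand. The Cdc25c window lies at chr18:26630243-26630542 on the minus strand. The cyclin E1 window lies at chr1:99927860-99928159 on the minus strand, and that of Cdkn2b at chr5:109134806-109135105 on the minus strand.
Ccnb1: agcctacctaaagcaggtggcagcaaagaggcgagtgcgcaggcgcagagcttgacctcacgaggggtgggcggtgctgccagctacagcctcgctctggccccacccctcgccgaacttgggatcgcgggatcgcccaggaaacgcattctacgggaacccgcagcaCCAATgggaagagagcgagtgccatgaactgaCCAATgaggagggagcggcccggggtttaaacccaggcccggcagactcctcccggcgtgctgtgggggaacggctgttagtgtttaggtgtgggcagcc
Ccnb2: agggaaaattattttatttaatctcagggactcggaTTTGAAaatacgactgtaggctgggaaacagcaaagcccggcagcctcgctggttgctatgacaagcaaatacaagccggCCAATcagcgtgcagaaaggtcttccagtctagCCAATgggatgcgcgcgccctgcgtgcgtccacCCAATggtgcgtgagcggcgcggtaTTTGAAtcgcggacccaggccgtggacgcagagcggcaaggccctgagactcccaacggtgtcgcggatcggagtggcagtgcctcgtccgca
Cdk1: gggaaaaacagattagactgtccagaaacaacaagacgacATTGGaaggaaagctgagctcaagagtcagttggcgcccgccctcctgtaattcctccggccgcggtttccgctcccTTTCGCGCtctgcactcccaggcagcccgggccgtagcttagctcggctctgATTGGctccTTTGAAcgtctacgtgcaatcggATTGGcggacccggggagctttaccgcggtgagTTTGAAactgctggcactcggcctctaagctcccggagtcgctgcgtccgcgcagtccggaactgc
Cdc25c: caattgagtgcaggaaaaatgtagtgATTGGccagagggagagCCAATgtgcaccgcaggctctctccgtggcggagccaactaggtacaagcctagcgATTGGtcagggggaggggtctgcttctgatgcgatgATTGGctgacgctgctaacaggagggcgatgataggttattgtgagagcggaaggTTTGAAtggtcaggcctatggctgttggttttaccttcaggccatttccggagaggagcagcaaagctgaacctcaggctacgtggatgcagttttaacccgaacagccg
Ccne1: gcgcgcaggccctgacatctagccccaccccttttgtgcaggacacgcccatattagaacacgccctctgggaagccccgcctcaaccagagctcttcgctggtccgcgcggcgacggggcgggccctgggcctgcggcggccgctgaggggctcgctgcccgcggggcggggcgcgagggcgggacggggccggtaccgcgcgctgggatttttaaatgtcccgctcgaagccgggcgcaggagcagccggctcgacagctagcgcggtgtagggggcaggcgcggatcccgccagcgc
Cdkn2b: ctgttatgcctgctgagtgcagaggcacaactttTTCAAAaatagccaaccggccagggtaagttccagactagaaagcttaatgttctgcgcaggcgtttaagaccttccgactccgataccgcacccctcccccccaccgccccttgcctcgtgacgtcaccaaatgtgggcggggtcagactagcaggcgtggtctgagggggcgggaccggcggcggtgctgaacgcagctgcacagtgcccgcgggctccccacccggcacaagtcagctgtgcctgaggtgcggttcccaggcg

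CCAAT was in the windows of all 5 genes of the mitotic role, Ccnb1, Ccnb2, Cdk1, Cdc25b and Cdc25c, and in 37.5% of all 33469 windows. At least 2 copies were in 4 of these 5 windows, all but that of Cdc25b, and in 11.2% of all windows. Outside the mitotic role, 6 of 41 member windows held at least 2 copies, which is 14.6%. In the 46 windows of all members CCAAT was in 24, which is 52.2%. The copies nearest the start in Ccnb1 began 82 and 50 bases before it, 32 bases apart. In Cdk1 the pair nearest the start was also 32 bases apart, on the other strand. Ccnb2 held 3 copies at steps of 33 bases, and the pair nearest the start in Cdc25c was 36 bases apart. Spacing was worked out for the mitotic role only, so the share of all windows with such steps is unknown. Outside the role, the Cdk2ap2 window held copies 226, 199, 158, 118, 85 and 5 bases before the start. TTTGAA was in the windows of Ccnb2, Cdk1 and Cdc25c, which is 60% of the mitotic role against 18.3% of all windows. In Ccnb2 it began 214 and 43 bases before the start, in Cdc25c 60 and in Cdk1 72 and 16. TTCGAA was in the Cdc25b window and in 1.69% of all windows. The E2f-type TTTCGCGC was in the Cdk1 window, 133 bases before the start, and in 0.326% of all windows. TTTGGCGC was in the Cdc25a window and in 0.493% of all windows, and TTTCCCGC was in 0 of the 46 member windows and 0.974% of all. The Ccne1 window held none of these letters and the Cdkn2b window held 1 copy of TTTGAA, on the opposite strand. A match is a description of letters and not of a bound site.

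Genes that reached 1 FPKM in either library were taken as measured, and these were 43 of the 49 members and 9539 genes in all. The difference is log2((FPKM Cacnb4 + 1)/(FPKM empty vector + 1)), so a positive value means a higher level in the Cacnb4 library, and the added 1 understates differences of low genes. None of the measured members reached 2-fold on this scale, where 1.08% of all measured genes were lower and 1.94% higher by that much. At 1.3-fold, 8 of 43 members were lower in the Cacnb4 library, which is 18.6%, and 7.07% of all measured genes were. At the same size 4 members were higher, which is 9.30%, and 7.78% of all measured genes were. These shares of all measured genes, 7.07% lower and 7.78% higher, also stand beside the counts by role and list below. The median difference of the members was -0.02, beside -0.03 over all measured genes. Values of the members lay on both sides of 0, and apart by role. All 10 measured members of the cyclin E, A and B roles were lower, with a median of -0.38 and 5 of them by 1.3-fold, where 55.4% of all measured genes had a value below 0. In bulk RNA, fewer cells in a phase and less RNA per cell cannot be told apart. The other 33 measured members had a median of 0.04, with 3 lower and 4 higher by 1.3-fold. These 3 roles were put together after their values were seen.

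**Figure D1:**
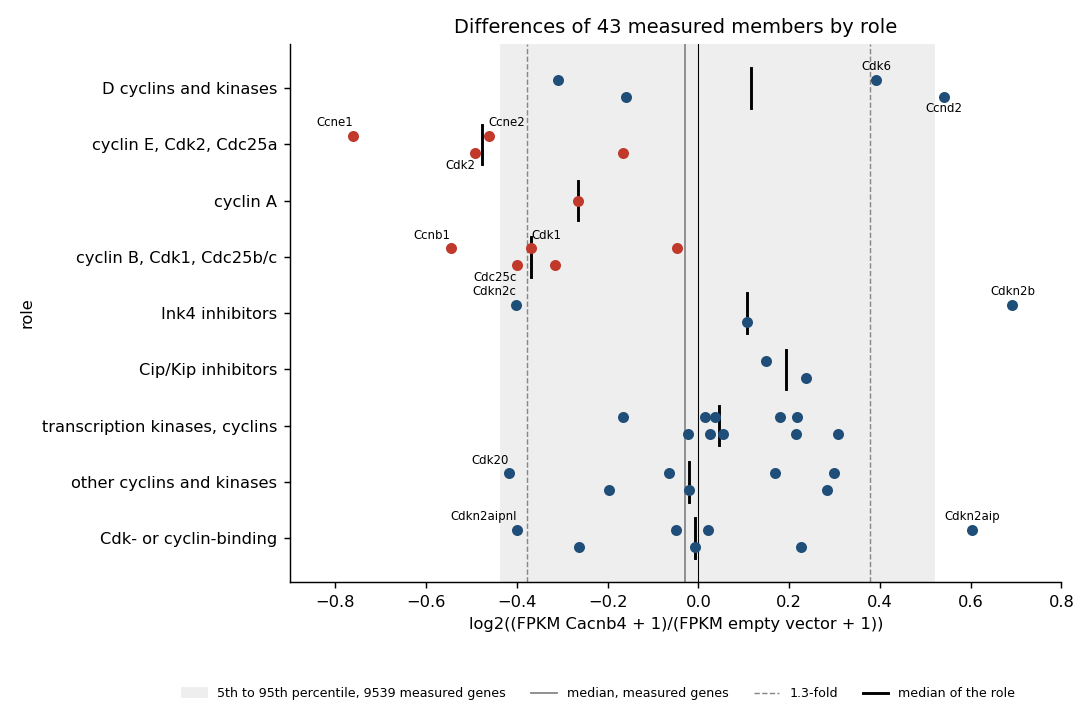
Each point is 1 of the 43 measured members, placed by its log2 ratio of FPKM + 1 in the Cacnb4 library over the empty vector library (horizontal axis) and its role (vertical axis), with the median of each role as a black bar. The grey band spans the 5th to 95th percentile of all measured genes, -0.44 to 0.52, dashed lines mark 1.3-fold, and the red points of the cyclin E, A and B roles all lie left of 0.

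In G1 the 4 D-type members, which do not include Ccnd3, were split, with 2 higher by 1.3-fold and 2 below 0. Ccnd1, cyclin D1, was at 105 FPKM with the empty vector and 84.5 FPKM with Cacnb4, a log2 difference of -0.31. Ccnd2, cyclin D2, was at 35.7 and 52.3 FPKM, a log2 difference of 0.54 and percentile 95.4 of the 9539 measured genes. The ratio of cyclin D2 to cyclin D1, both per length, was 0.340 with the empty vector and 0.619 with Cacnb4. The kinases they bind split in the same manner. Cdk4 was the member with the highest level, at 267 and 239 FPKM, a log2 difference of -0.16. Cdk6 was at 12.2 and 16.3 FPKM, a log2 difference of 0.39, just past 1.3-fold. Cdk4 shares its stretch of chromosome 7 with Tspan31, at 50.4 and 54.4 FPKM, and the files do not say whether counting used strand, so reads of the pair could be split between them.

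**Figure D2:**
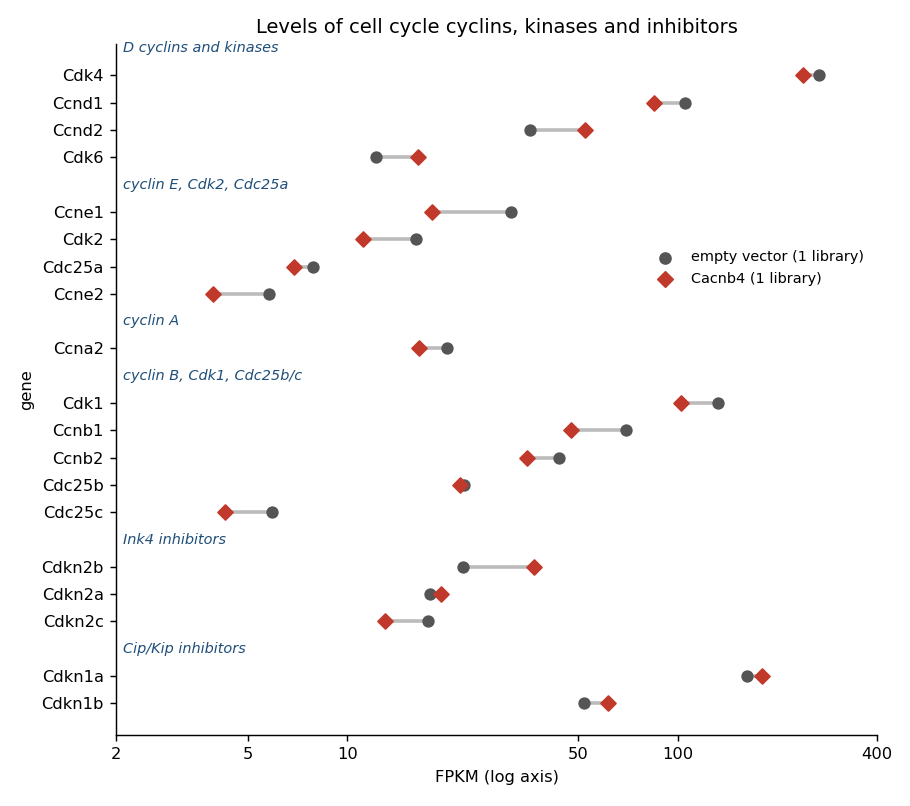
FPKM on a log axis (horizontal) of the measured cyclins, kinases, phosphatases and inhibitors with a direct role in the cycle (vertical), as grey circles for the empty vector library and red diamonds for the Cacnb4 library. Diamonds lie left of circles for every gene from Ccne1 to Cdc25c, and right of them for Ccnd2, Cdk6, Cdkn2b, Cdkn2a, Cdkn1a and Cdkn1b.

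At entry into S phase all 4 members were lower, 3 of them by 1.3-fold, with a median log2 difference of -0.48. Ccne1, cyclin E1, was at 31.2 FPKM with the empty vector and 18.0 FPKM with Cacnb4. Its log2 difference of -0.76 was the lowest of all measured members, at percentile 1.54 of measured genes. Its transcript spans chromosome 1 from 90568188 to 90577426 in the table, on build rn4. Ccne2, cyclin E2, was at 5.78 and 3.92 FPKM, a log2 difference of -0.46. Cyclin E1 exceeded cyclin E2 5.40 times with the empty vector and 4.59 times in the other, per length. Cdk2, the kinase of both E cyclins, was at 16.1 and 11.2 FPKM, a log2 difference of -0.49 at percentile 3.75. Cdc25a, the phosphatase that activates Cdk2, was at 7.84 and 6.89 FPKM and differed least of the 4, by -0.17.

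For S phase and G2, Ccna2, cyclin A2, was at 20.0 FPKM with the empty vector and 16.5 FPKM with Cacnb4, a log2 difference of -0.27. Both of its transcripts were lower, at 11.9 and 9.73 FPKM and at 8.09 and 6.75 FPKM. Its locus overlaps that of Exosc9 in the table, at 10.8 and 9.30 FPKM, so reads could be shared. Ccna1, the cyclin A of the germ line, was not measured, at 0.118 and 0.0541 FPKM.

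All 5 mitotic members were lower, 2 of them by 1.3-fold, with a median log2 difference of -0.37. Ccnb1, cyclin B1, was at 69.6 FPKM with the empty vector and 47.4 FPKM with Cacnb4, a log2 difference of -0.55 at percentile 2.83. Its transcript spans chromosome 2 from 31574599 to 31581784 on rn4. Ccnb2, cyclin B2, was at 43.7 and 34.9 FPKM, a log2 difference of -0.32. The ratio of cyclin B1 to cyclin B2 was 1.59 with the empty vector and 1.36 with Cacnb4. Cdk1, their kinase, was at 132 and 102 FPKM, a log2 difference of -0.37 just short of 1.3-fold. Cdc25c, which activates Cdk1 at mitosis, was at 5.93 and 4.25 FPKM, a log2 difference of -0.40. Cdc25b, a phosphatase acting ahead of it, was at 22.6 and 21.8 FPKM, a log2 difference of -0.05 close to the median of all genes.

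The Ink4 inhibitors, which hold Cdk4 and Cdk6 inactive, included the member with the highest difference and another that was lower. Cdkn2b, p15, was at 22.4 FPKM with the empty vector and 36.7 FPKM with Cacnb4, a log2 difference of 0.69 at percentile 96.8. Cdkn2c, p18, was at 17.5 and 13.0 FPKM, a log2 difference of -0.40. Cdkn2a, a locus that encodes an Ink4 protein and Arf, was at 17.7 and 19.2 FPKM, a log2 difference of 0.11. The table gives Cdkn2a as 1 transcript, so its products could not be told apart. Cdkn2b lies next to it on chromosome 5, from 108939668 to 108945293 on rn4. The ratio of Cdkn2b to Cdkn2a was 1.26 with the empty vector and 1.91 with Cacnb4.

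The Cip/Kip inhibitors were above 0 by less than 1.3-fold. Cdkn1a, p21, a target of p53 and of muscle differentiation factors, was at 162 and 180 FPKM, a log2 difference of 0.15. It was the inhibitor with the highest level in both libraries, and its locus lies on chromosome 20 from 7376227 to 7386778 on rn4. Its transcripts were at 132 and 146 FPKM and at 30.0 and 33.6 FPKM, so their shares stayed within 1 percentage point. Cdkn1b, p27, was at 52.2 and 61.6 FPKM, a log2 difference of 0.24. Cdkn1c, p57, was not measured, with its 4 transcripts summing to 0.137 and 0.0556 FPKM.

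**Figure D3:**
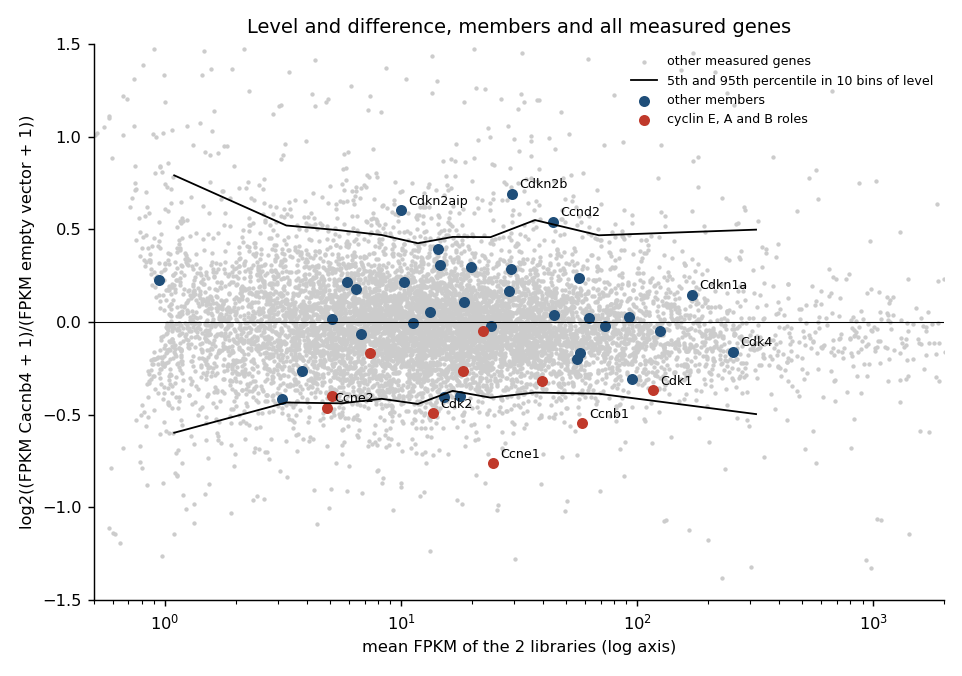
Mean FPKM of the 2 libraries on a log axis (horizontal) against the log2 ratio of FPKM + 1 (vertical), with measured genes in grey, members of the cyclin E, A and B roles in red and the other members in blue. Black lines are the 5th and 95th percentile in 10 bins of level, 188 genes beyond 1.5 are not drawn, and Ccne1, Ccnb1, Cdk2, Ccne2, Cdkn2c and Cdkn2aipnl lie under the lower line at their level.

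The spread of all genes depends on level, so members were also placed among genes of like level. Measured genes were split into 10 bins of equal size by mean FPKM. Ccne1 was at percentile 1.89 of its bin, Ccnb1 at 2.20, Cdk2 at 3.77 and Ccne2 at 4.40. At the other end Cdkn2aip was at percentile 97.3 of its bin, Cdkn2b at 95.9, Ccnd2 at 94.8 and Cdk6 at 93.2. Cdkn2c, at 4.09, and Cdkn2aipnl, at 4.41, lay as low in their bins as Cdk2 and Ccne2. These ranks describe the 2 libraries and carry no error.

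Cyclins and kinases of transcription stayed within 1.3-fold in all 10 measured members, with a median log2 difference of 0.04 and 8 above 0. Ccnl2, cyclin L2, which acts in splicing with Cdk11, was at 13.0 FPKM with the empty vector and 16.3 FPKM with Cacnb4, the largest difference of the role at 0.31. Cdk12, a kinase of elongating RNA polymerase II, was at 9.45 and 11.1 FPKM, a difference of 0.22. Ccnc, the cyclin of the Mediator kinase module, was at 5.41 and 6.44 FPKM, a difference of 0.21. Cdk13, a near relative of Cdk12, was at 5.98 and 6.90 FPKM, a difference of 0.18. The lowest of the role was Ccnh, cyclin H of the Cdk-activating kinase, at 60.3 and 53.6 FPKM. Cdk9, Cdk11b, Cdk19, Ccnk and Ccnl1 lay between -0.02 and 0.05. Cdk11b is a sum over loci on chromosomes 5 and X, and reads could be split between these copies.

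Of the other cyclins and kinases, 7 of 8 were measured, 1 was lower by 1.3-fold and 0 were higher. Cdk20, also called cell cycle-related kinase, was at 3.71 FPKM with the empty vector and 2.52 FPKM with Cacnb4, a log2 difference of -0.42. Cdk17, of the Pctaire group, was at 17.7 and 22.0 FPKM, a difference of 0.30. Cdk14, a kinase that binds cyclin Y, was at 26.3 and 32.2 FPKM, a difference of 0.28. Cdk5, best known in neurons, was at 59.7 and 51.9 FPKM, a difference of -0.20. Ccng2, Cdk10 and Cdk16 lay between -0.06 and 0.17. Cdk18 was not measured, at 0.741 and 0.690 FPKM.

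Among the 10 genes named for binding a kinase, inhibitor or cyclin, 7 were measured, with 1 higher and 1 lower by 1.3-fold. Cdkn2aip, whose product binds Arf and p53 in human cells, was at 7.72 FPKM with the empty vector and 12.2 FPKM with Cacnb4, a log2 difference of 0.60 at percentile 96.1. Cdkn2aipnl, named for its likeness to part of that protein, was at 20.3 and 15.2 FPKM, a difference of -0.40 in the other direction. Cdk5rap1, an enzyme that modifies mitochondrial transfer RNA, was at 4.22 and 3.35 FPKM, a difference of -0.26. Cdk5r1, an activator of Cdk5, was near the threshold of measurement at 0.789 and 1.09 FPKM. Cdk2ap1, Cdk2ap2 and the centrosomal Cdk5rap2 lay between -0.05 and 0.02. Cdkn3, a phosphatase of Cdk2, was not measured at 0.242 and 0.000123 FPKM, nor were Cdk5r2 and Ccnb1ip1, both below 0.2 FPKM in both libraries.

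The authors' deposited table marked 0 of the 65 member transcripts as significant, and so 0 of the 43 measured members. It marked a transcript of 1.03% of all measured genes, and 0 of 43 is near that share. Their test sets 1 library against the other and says nothing of the spread between cultures. The lowest p-values of members in the authors' deposited table were 0.0113 for Ccne1, 0.0199 for Cdkn2b and 0.0425 for Cdkn2aip, with q-values of 0.422, 0.541 and 0.624. These 3 of 65 transcripts make 4.62%, beside 2.30% of all named transcripts with a p-value below 0.05 in the authors' deposited table. All named transcripts belong to 16783 genes, of which 9539 were measured, and the member transcripts to 49 genes, of which 43 were. The former thus hold a larger part of low genes, and the 2 shares are not of like level. For Ccnb1 the authors' deposited table gave a p-value of 0.0706, for Cdk2 0.0978 and for Ccne2 0.0985. For Cdkn1a the lower of the p-values in the authors' deposited table was 0.670.

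Of the members, 12 had more than 1 transcript in the table, and in some the transcripts differed from the gene's sum. They are described here after their values were seen. For Ccnd2, the higher transcript was at 30.4 FPKM with the empty vector and 40.0 FPKM with Cacnb4, and the other at 5.22 and 12.4 FPKM. The share of the latter was 14.7% and 23.6%. For Cdk13, 1 transcript was at 3.63 and 5.25 FPKM and the other at 2.35 and 1.65 FPKM, so the sum hides opposite differences. For Cdk16, a Pctaire kinase, the highest transcript was at 48.9 and 40.3 FPKM and the next at 23.4 and 30.3 FPKM, with shares of 31.7% and 41.7% for the latter. For Cdk10, 1 transcript was listed at 0 with the empty vector and at 3.81 FPKM with Cacnb4, while the main one was at 25.2 and 24.6 FPKM. The Cdk10 locus overlaps that of Spata2L, at 2.07 and 2.85 FPKM, so reads could be shared. For Cdkn1b, the lower transcript was at 12.9 and 18.7 FPKM, and the higher at 39.2 and 42.9 FPKM. The authors' deposited table gave 1 transcript each of Ccnd2, Ccna2 and Cdk16 a p-value of 1. Transcripts of a gene share most of their sequence, and how the authors divided reads among them is not stated.

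**Figure D4:**
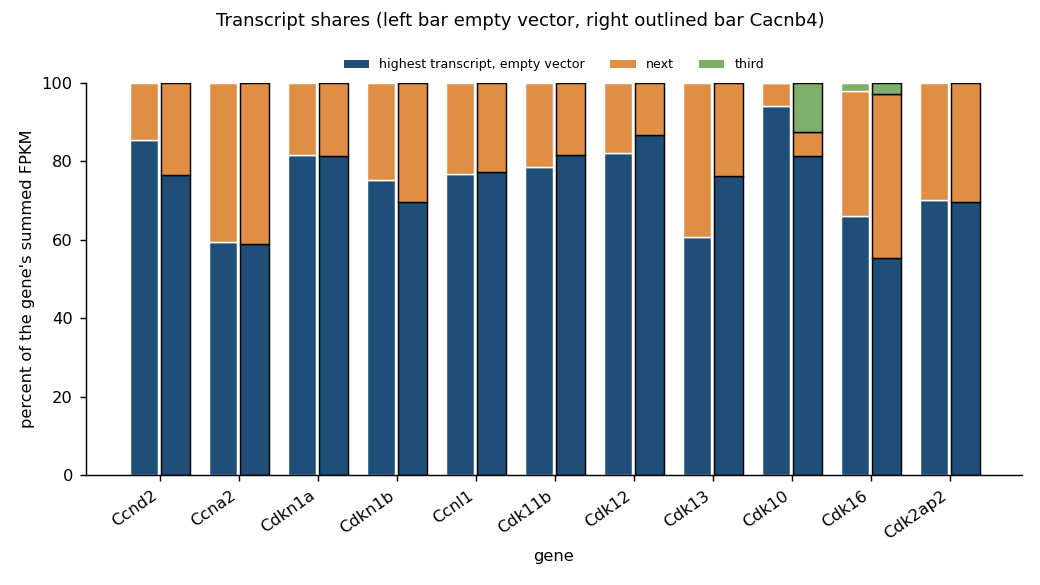
Percent of a gene's summed FPKM (vertical axis) held by each of its transcripts, for the 11 measured members with more than 1 transcript (horizontal axis), with the empty vector library as the left bar and the Cacnb4 library as the outlined right bar. Shares of Ccnd2, Cdk13, Cdk10, Cdk16, Cdkn1b, Cdk12 and Cdk11b differ between the bars, while those of Ccna2, Cdkn1a, Ccnl1 and Cdk2ap2 lie within 1 percentage point. The parts of the Cdk11b bars come from loci on chromosomes 5 and X.

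Other genes of the pathway, upstream and downstream of the kinases, are read beside all measured genes, of which 55.4% were below 0, with a median log2 difference of -0.03. Of all measured genes 7.07% were lower and 7.78% higher by 1.3-fold, and each list has few genes. Of 9 measured Rb and E2f genes, 1 was lower by 1.3-fold, E2f1 at 13.5 FPKM with the empty vector and 9.13 FPKM with Cacnb4, 5 were below 0, and the median was -0.04, close to that of all genes. Rb1, the retinoblastoma protein, was at 7.04 and 8.59 FPKM. Of 6 measured genes of late cell cycle transcription, 0 were past 1.3-fold, with a median of -0.16. The lowest of these were Mybl2, B-Myb, at 22.2 and 17.2 FPKM and Foxm1 at 9.99 and 7.81 FPKM. Of 17 measured genes of the anaphase-promoting complex, which has cyclin B destroyed, 15 were below 0 and 0 were past 1.3-fold, with a median of -0.16. Its conjugating enzyme Ube2c was the lowest, at 146 and 115 FPKM.

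The small Cks proteins, which bind the kinases directly, were lower by 1.3-fold. Cks2 was at 68.4 FPKM with the empty vector and 46.2 FPKM with Cacnb4, and Cks1b at 21.6 and 15.1 FPKM. Fbxo31, part of a ubiquitin ligase reported to act on cyclin D1 in human cells, was at 33.6 and 20.4 FPKM. It was the third of 9 measured SCF and Cks genes lower by 1.3-fold. Of these 9 genes 0 were higher by that much, with a median log2 difference of -0.17. Above 0 were 2 of the 9, the highest being Ambra1 at 10.3 and 12.8 FPKM, a log2 difference of 0.29. Of 8 measured checkpoint genes and kinases that inhibit Cdk1, 3 were lower by 1.3-fold and 0 higher, with a median of -0.31. Chek1 was at 8.26 and 5.92 FPKM, Pkmyt1 at 8.72 and 6.40 FPKM and Plk1 at 40.5 and 30.9 FPKM. Wee1, which like Pkmyt1 inhibits Cdk1, was at 7.84 and 6.11 FPKM. Activators of Cdk1 and kinases that inhibit it thus both had values below 0.

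Upstream of the D cyclins, 2 of 7 measured growth signal genes were higher by 1.3-fold and 0 lower, with a median log2 difference of -0.04. Myc was at 18.6 FPKM with the empty vector and 30.1 FPKM with Cacnb4, and Mycn at 3.27 and 5.13 FPKM. The 8 measured proliferation markers, of which Ccna2 is also a member, were all below 0, 3 of them by 1.3-fold, with a median of -0.23. These 3 were Pcna, the replication clamp, at 215 and 150 FPKM, Aurkb at 36.2 and 23.6 FPKM and Mcm2 at 27.0 and 19.0 FPKM. Mki67 was at 33.0 and 29.8 FPKM and Aurka at 18.8 in both libraries, so that markers of dividing cells differed by unequal amounts. The 4 measured skeletal myoblast markers lay on both sides of 0, with a median of 0.08 and summed levels of 165 FPKM with the empty vector and 195 FPKM with Cacnb4. Myog, expressed by myoblasts that leave the cycle, had a log2 difference of 0.48, Myod1 0.17, the acetylcholine receptor subunit Chrna1 -0.0031 and desmin, Des, -0.29, while Myf5 was near 0 FPKM in both libraries. Of the 4 measured heart markers, Tnnt2 had a log2 difference of 0.53, and Actc1, Gata4 and Tnni3 had values below 0, with a median of -0.27 and summed levels of 445 and 505 FPKM. Their part in the differences of the cyclins was not tested.

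**Figure D5:**
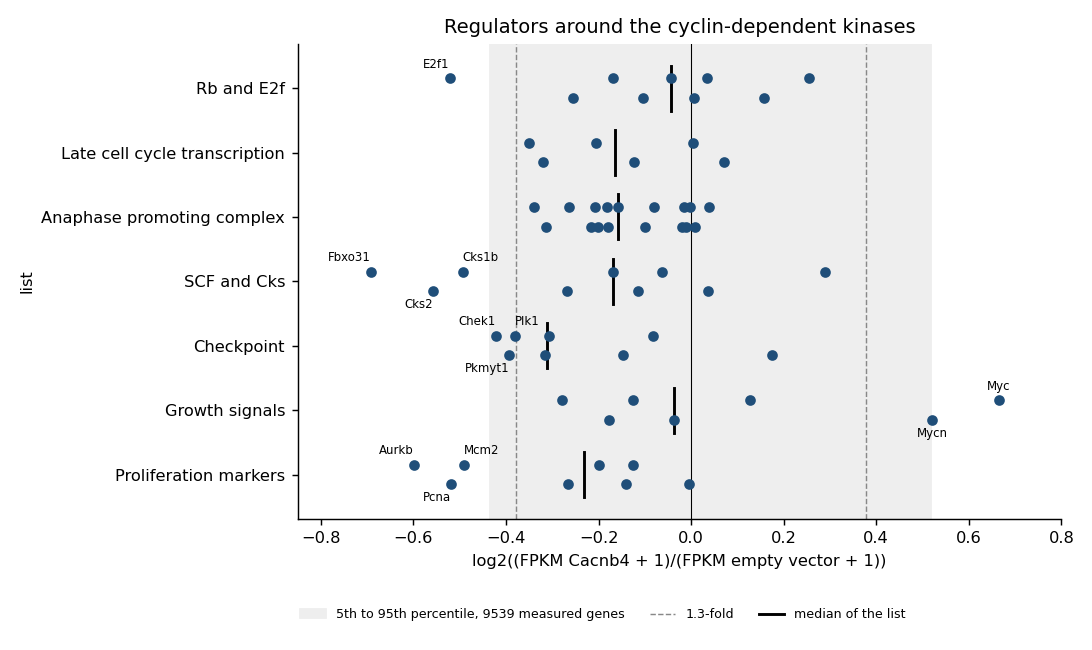
Each point is a measured gene of 7 lists of cell cycle regulators, placed by its log2 ratio of FPKM + 1 in the Cacnb4 library over the empty vector library (horizontal axis) and its list (vertical axis), with the list's median as a black bar, the grey band as the 5th to 95th percentile of measured genes and dashed lines at 1.3-fold. Points past 1.3-fold carry names, and Myc and Mycn are the ones on the higher side.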

How the data were processed

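RNA of 2 libraries was sequenced, 1 per group, and groups were taken from the sample titles. Read numbers are deposited counts, taken by the authors after trimming the adaptor and dropping reads shorter than 10 bases, per the file's footnote. The submitters' processing notes name TopHat 1.4.1 and rn4, and what estimated the levels is not stated there. The deposited table's header names no unit; its values were read as the authors' FPKM from their form. Its fold change, p-value and q-value columns are the authors' own and are named so. The table does not say whether its coordinates count from 0 or 1.

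Left out of the sums were 13533 transcripts with no gene name and 17 with date-like names. A pseudocount of 1 FPKM and a minimum of 1 FPKM were used, with sizes of 1.3-fold and 2-fold, computed in Python 3.11.15 with pandas 2.3.3, and the counting was tested on simulated data. Members, roles, lists, the 1.3-fold size and motifs were chosen with earlier results of these data known. Named were the cell cycle cyclins, their kinases, phosphatases and inhibitors, the 4 measured members with the largest difference in each other role, and genes from among the 4 with the largest difference in each list. Other genes named were chosen after their values were seen. Also tried were pseudocounts of 0.1 and 5 FPKM, minimums of 0 and 5 FPKM, the highest transcript in place of the sum, and a rescaling to a median ratio of 1.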

Additional observations from a re-analysis of the deposited data

How the results depend on the processing

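All 10 measured members of the cyclin E, A and B roles, put together after their values were seen, stayed below 0 under every alternative run. Neither a pseudocount nor a minimum can turn a sign, so only the highest transcript and the rescaling could have changed this. Of the 10, Ccna2 alone had more than 1 transcript, and rescaling left Cdc25b at -0.01. Under every alternative 0 members reached 2-fold. The count of members lower by 1.3-fold was 8, and it was 3 with a pseudocount of 5 FPKM and 5 after rescaling, which divided the Cacnb4 values by 0.976. Over all measured genes the share lower by 1.3-fold was then 3.24% and 5.72%. Ccne1, Ccnb1 and Cdk2 were past 1.3-fold in each alternative, while Ccne2, Cdk20 and Cdk6 came under it with a pseudocount of 5 FPKM, and Cdc25c, Cdkn2c and Cdkn2aipnl there and after rescaling. Ccnd2, Cdkn2b and Cdkn2aip stayed past it in each. With a pseudocount of 0.1 Cdk5r1 passed 1.3-fold, and with the highest transcript Cdk13 did. The sign of Cdk10 turned with the highest transcript, and those of Ccnl1, Cdk16 and Cdk5rap2 after rescaling, as did the family's median, to 0.02. No paired analysis was possible because each group held 1 library, and for the same reason no library could be left out.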

Other observations

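Cyclins and related kinases outside the symbol rule were looked at after the other values were seen. Of 12 such genes 10 were measured, 2 were lower by 1.3-fold and 0 higher, with a median log2 difference of -0.12. Of all measured genes 7.07% were lower and 7.78% higher by that much. Ccnf, cyclin F, which peaks in G2 and serves a ubiquitin ligase rather than a kinase, was at 15.7 FPKM with the empty vector and 9.90 FPKM with Cacnb4, a log2 difference of -0.62. Among the family's measured members, Ccne1 alone had a lower value. Cdkl2, a kinase of the Cdk-like group, was at 3.21 and 1.84 FPKM. Ccnt1 and Ccnt2, the cyclin T partners of Cdk9 in transcription, were at 7.05 and 8.48 FPKM and at 5.48 and 6.79 FPKM, both higher by less than 1.3-fold. Ccny, the partner of Cdk14 and Cdk16, was at 14.1 and 14.8 FPKM.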
